A study of Mus musculus with 12 samples.

Results

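The brains of 4 wild-type mice (WT 1 to WT 4) are described here, out of 12 mice in the study, and they were taken by their sample titles, which end in WT. The other 8 mice lack Plat, the gene for tissue-type plasminogen activator, and were not used. All 4 wild-type mice were labelled C57BL/6 (C57BL/6J in the series' design text), were 6 weeks old, were untreated and, per the labels, were bought from a supplier. They were killed with carbon dioxide, and each library came from 1 brain without its olfactory bulb and cerebellum. The tissue label reads cerebral cortex, whereas the dissection describes the remaining brain. No sex is given in the sources used here. The titles of WT 3 and WT 4 carry the letters tpa before the mouse number and those of WT 1 and WT 2 do not, with no explanation in the sources used here.

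Adult brain RNA is a mixture from neurons, glia and vessels. Each of these cell types is known by transcripts that the others make little of, such as synaptic vesicle proteins in neurons, glutamate transporters in astrocytes and myelin proteins in oligodendrocytes. Immediate early genes are transcribed within minutes of neuronal activity or handling, without new protein synthesis, and glucocorticoid target genes follow the level of the stress hormone corticosterone. Both groups are known to differ between animals of a single strain.

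Expression was deposited as FPKM, fragments scaled to transcript length and library size, which allows levels of different genes to be compared per length. Of 27131 genes in the table, 14189 had a mean of at least 1 FPKM over the 4 mice, and 12189 of these were protein-coding. A mean of at least 10 FPKM was reached by 5575 genes and a mean of at least 100 FPKM by 357. The number of genes at or above 1 FPKM was 14079 in WT 1, 14066 in WT 2, 14197 in WT 3 and 13755 in WT 4. No read counts were given, so the depth of the libraries is unknown and the precision rests on the spread between mice. With 4 mice in a single group there is no contrast to test, and every value below is a description. Spread is given as the coefficient of variation (CV), the SD between mice as a percentage of their mean.

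WT 4 stood apart from the other 3 mice. The median absolute difference in log2(FPKM + 0.1) over genes was 0.08 between WT 1 and WT 2 and 0.10 for each of them against WT 3. Against WT 4 it was 0.46, 0.47 and 0.46. WT 4 was also the library that carried Y-linked transcripts. Ddx3y, a Y-linked RNA helicase gene, was listed at 0 FPKM in WT 1 and WT 2, at 0.01 in WT 3 and at 6.51 in WT 4. Xist, the noncoding RNA of the inactive X chromosome, was at 5.89, 3.16, 3.06 and 0.02 FPKM in WT 1 to WT 4. The labels do not say that the group mixes sexes. Sex, library and whatever else was particular to WT 4 cannot be told apart, so spreads are given with and without this mouse.

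The transcripts at the top of the table were mainly ribosomal, nucleolar or other short structural RNAs and their overlapping loci. The row ENSMUSG00000098178.1, an annotated long noncoding RNA, led with 45292, 115807, 48032 and 39553 FPKM in WT 1 to WT 4. It was highest in WT 2, as were Lars2, the gene for mitochondrial leucyl-tRNA synthetase, with 4558, 11285, 5066 and 3214 FPKM, and the row ENSMUSG00000086324.2 with 3885, 11089, 4260 and 3274 FPKM. Rn45s, the ribosomal precursor RNA, had 15332, 32394, 15794 and 53018 FPKM and was high in WT 2 and WT 4. The 10 genes with the highest values took 35.6% of the FPKM sum in WT 1, 49.8% in WT 2, 35.01% in WT 3 and 41.3% in WT 4. Gm20594, annotated as protein-coding, had a mean of 19223 FPKM. The next protein-coding gene after Gm20594 and Lars2 was Fth1, which encodes the ferritin heavy chain that stores iron, with a mean of 989.9 FPKM and an SD of 126.4 FPKM (n = 4).

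Neuronal transcripts were among the most abundant. Snap25, a component of the synaptic fusion machinery, was at 824.5, 797.2, 760.1 and 397.4 FPKM in WT 1 to WT 4, so that 3 mice lay close together and WT 4 lay well below them. Syt1, the calcium sensor of vesicle release, averaged 258.4 ± 55 FPKM (SD, n = 4) and Syn1, a vesicle phosphoprotein gene, 157 ± 7.69. All 11 pan-neuronal genes in the table had a mean of at least 1 FPKM, with a median of 122 FPKM. Map2, the other gene of that list, was not analysed here. Genes of glutamatergic neurons included Camk2a, a kinase of the postsynaptic density, at 370.8, 372.9, 353.8 and 339.4 FPKM, and Slc17a7, the vesicular glutamate transporter of cortex and hippocampus, at 184 ± 34.0. The subcortical transporter Slc17a6 was lower, at 16.3 ± 5.22 FPKM. Of GABAergic genes, the peptide genes Sst and Npy led with means of 192 and 82.4 FPKM, and the GABA-synthesising enzymes Gad1 and Gad2 averaged 70.0 ± 11.0 and 39.2 ± 8.05 FPKM (SD, n = 4). Pvalb, which marks fast-spiking interneurons, was at 20.7 ± 5.53 FPKM, and Vip at 9.31 ± 2.24.

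Glial transcripts reached the neuronal range. Mbp, which encodes myelin basic protein, was at 841.2, 832.5, 832.5 and 928.4 FPKM in WT 1 to WT 4, with a CV of 0.60% over the first 3. Cnp, a myelin enzyme gene, averaged 79.0 ± 1.79 FPKM (SD, n = 4). In astrocytes, Glul, which turns glutamate into glutamine, averaged 374.0 ± 67.6 FPKM and the glutamate transporter genes Slc1a2 and Slc1a3 averaged 343.3 ± 89.7 and 74.2 ± 11.0. Gfap, a filament gene that rises in reactive astrocytes, was at 34.1 ± 3.86 FPKM. Genes of oligodendrocyte precursors were lower, with Tnr at 22.0 ± 1.08 and Pdgfra at 7.96 ± 0.70 FPKM. Microglial genes had a list median of 6.81 FPKM, beside 4.85 for the precursor genes. Cx3cr1, the fractalkine receptor gene, was at 7.91, 7.92, 7.92 and 6.36 FPKM. The summed level of the 20 microglial genes was 191.2, 190.4, 188.6 and 192.8 FPKM in WT 1 to WT 4, a mean of 190.8 ± 1.77 (SD, n = 4). Single microglial genes were less even than their sum. WT 4 was the highest mouse in 9 of the 20 and the lowest in 11, against 28.6% and 58.5% of all genes. The median CV of the list was 16.2% over 4 mice. In bulk tissue, fewer cells of a type and less RNA per cell cannot be told apart.

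Vascular, meningeal and ventricular transcripts were also measured. Among the 20 endothelial genes the median of the means was 5.61 FPKM, led by Itm2a at 12.6 ± 2.08 and Ly6c1 at 11.3 ± 0.37 FPKM (SD, n = 4). The pericyte genes Vtn and Rgs5 averaged 18.9 ± 1.74 and 16.5 ± 3.26 FPKM. Ptgds, a prostaglandin synthase gene that is abundant in the meninges and also made by oligodendrocytes, averaged 341.4 ± 25.9 FPKM. Ttr, the thyroxine carrier made by the choroid plexus, was at 262.4, 234.5, 188.3 and 154.3 FPKM. WT 1 and WT 2 were high and WT 3 and WT 4 low, and the pairs did not overlap. Of 11 peripheral leukocyte genes only Cd4 had a mean of at least 1 FPKM, and of 10 pituitary and pineal genes 0 did. The near-identical haemoglobin genes Hba-a1 and Hba-a2 summed to 17.4, 17.9, 12.0 and 28.5 FPKM, with WT 4 highest.

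**Figure D1:**
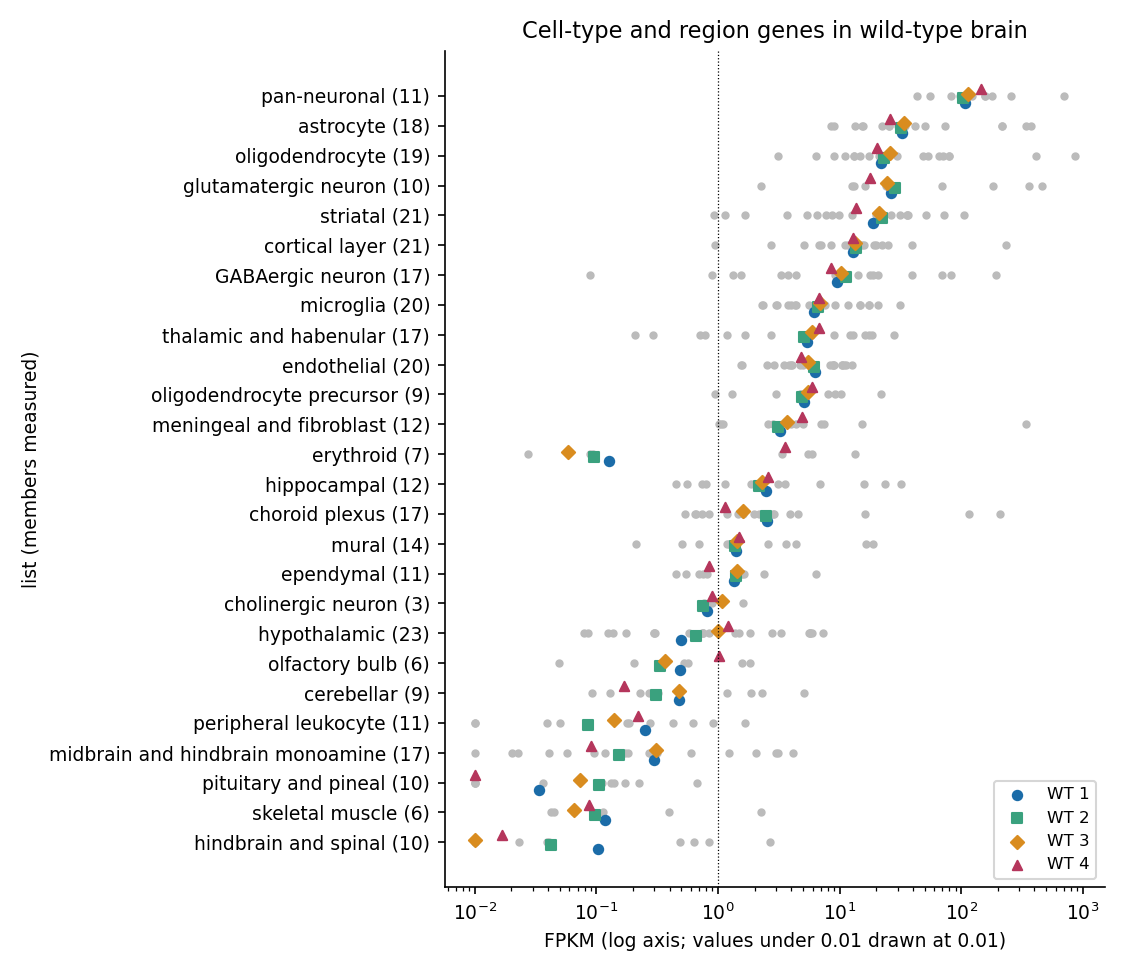
Levels of 26 lists of cell-type and region genes (vertical axis, with the number of members measured) in FPKM on a log axis. Grey points are single genes as means of 4 mice, coloured markers are the median of the list in each mouse, and the dotted line is 1 FPKM. Pan-neuronal genes lie highest with a median of 122 FPKM, and 9 lists, pituitary and cerebellar genes among them, have medians below 1 FPKM.

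Genes of the cortex were measured beside genes of deeper regions. Cortical layer genes were expressed, with 20 of 21 at a mean of at least 1 FPKM. Tbr1, a transcription factor gene of deep-layer neurons, was at 26.4, 26.9, 25.2 and 21.3 FPKM, and Cux2, of upper layers, at 12.7, 12.8, 12.2 and 23.7. Striatal genes were expressed in 20 of 21 cases, with a list median of 20.1 FPKM beside 13.2 FPKM for cortical layer genes. Penk, the enkephalin precursor gene of indirect-pathway striatal neurons, was at 91.6, 104.8, 103.9 and 122.1 FPKM, and Ppp1r1b, the dopamine-regulated phosphatase inhibitor DARPP-32, at 64.3, 66.6, 62.3 and 97.97. Thalamic and habenular genes were expressed in 13 of 17 cases, with Prkcd at 17.3 ± 0.86 FPKM (SD, n = 4) and Tcf7l2 at 12.1 ± 3.01. Of 23 hypothalamic genes, 10 had a mean of at least 1 FPKM, led by Pmch, the melanin-concentrating hormone gene, at 8.13, 5.36, 9.73 and 5.88. Dopaminergic transcripts of the midbrain were low, with Th, the rate-limiting enzyme of catecholamine synthesis, at 3.02 ± 0.74 FPKM and the dopamine transporter gene Slc6a3 at 2.04 ± 0.76.

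Genes of the regions that the dissection removed were low. Of 9 cerebellar genes, 4 had a mean of at least 1 FPKM, and these were Cbln1, Slc1a6, Car8 and Pcp2. Cbln1, a synapse organiser gene that the cerebellum shares with other regions, was at 5.14 ± 0.76 FPKM and Pcp2, a Purkinje cell gene, at 1.58, 0.70, 0.56 and 1.87. Of 6 olfactory bulb genes, Doc2g and Cdhr1 reached a mean of 1 FPKM, at 1.84 ± 1.06 and 1.59 ± 0.37 FPKM. The levels of Doc2g were 1.70, 1.35, 0.94 and 3.36 FPKM, with WT 4 highest.

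Over the 14189 genes with a mean of at least 1 FPKM, the median CV between the 4 mice was 17.8%. Without WT 4 it was 5.74%. Leaving out another mouse instead gave 19.98% without WT 1, 19.8% without WT 2 and 19.7% without WT 3. A CV of at least 30% was found in 1974 genes over 4 mice and in 549 of 14195 genes without WT 4. A CV under 10% was found in 22.4% of genes over 4 mice and in 74.7% without WT 4. These spreads are themselves imprecise for a single gene. The 95% interval of an SD, for normally distributed values, runs from 0.57 to 3.73 times the estimate with 4 mice and from 0.52 to 6.28 times with 3. Among WT 1 to WT 3 the spread fell with level, from a median CV of 12.6% at 1 to 2 FPKM to 3.71% at 100 to 1000 FPKM. With WT 4 included it hardly depended on level, at 22.2% and 16.5% for the same classes.

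**Figure D2:**
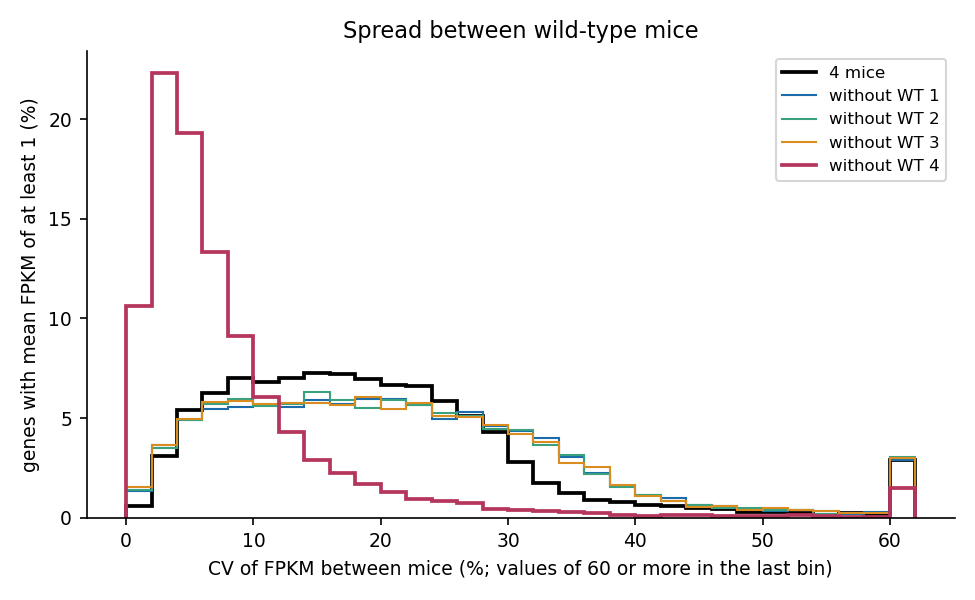
Distribution of the CV of FPKM between wild-type mice (horizontal axis, percent) over genes with a mean of at least 1 FPKM (vertical axis, percent of genes per 2-point bin), for all 4 mice and with each mouse left out. The curve without WT 4 peaks at a few percent, with a median of 5.74%, while the other 4 curves are broad and share medians between 17.8% and 19.98%.

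The deviation of WT 4 followed the GC content of the transcript. Among genes under 40% GC, the median of log2(FPKM + 0.1) in WT 4 minus the mean of the other 3 mice was -0.89. It was -0.42 between 45% and 50% GC, 0.36 between 55% and 60% and 0.83 at 60% or more. The GC-rich transcripts Apoe, the main brain lipid carrier, and Cldn5, a tight-junction gene of brain endothelium, were high in WT 4. Apoe was at 421.7, 417.8, 407.1 and 965.4 FPKM, and Cldn5 at 6.78, 6.66, 7.73 and 20.5. With the GC trend of each library removed, Apoe was at 463.3, 461.8, 454.0 and 715.8 FPKM, with WT 4 still highest. The GC-poor Snap25 and the GABA-A receptor genes lay low in WT 4. Their summed level over 12 genes was 377.4, 389.4 and 386.5 FPKM in WT 1 to WT 3 and 214.8 in WT 4, and their median GC content was 42.1%. WT 4 was lowest in 10 of these 12, against 58.5% of all genes. With the GC trend of each library removed, the median CV over 4 mice was 9.25%. By a gap of at least 82.9% of the range over 4 mice, WT 4 stood above the others in 1217 genes and below them in 2176, out of 3605 genes (25.4%) in which any mouse stood apart. WT 1 did so in 71 genes, WT 2 in 64 and WT 3 in 77.

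**Figure D3:**
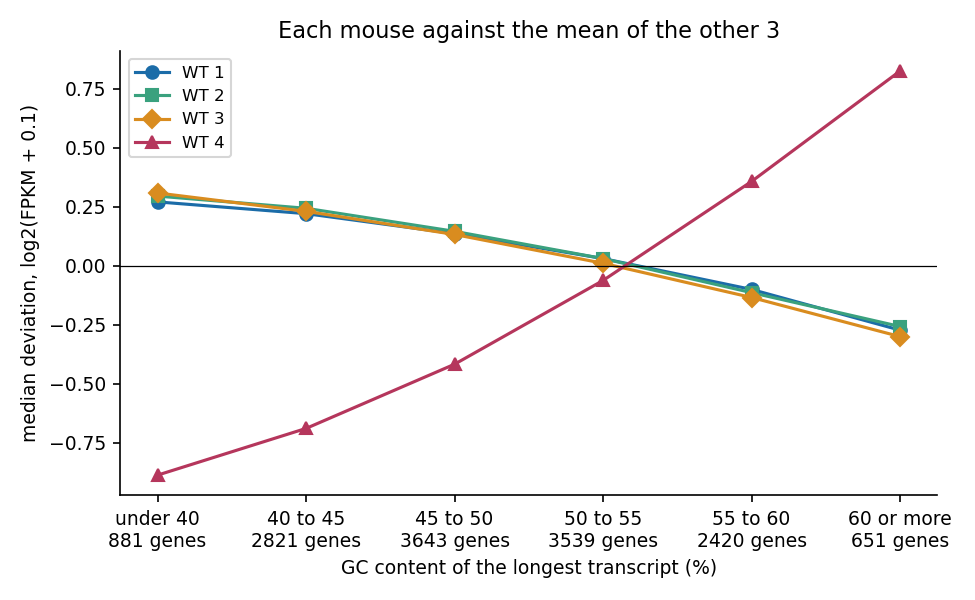
Median deviation of each wild-type mouse from the mean of the other 3, in log2(FPKM + 0.1) (vertical axis), by GC content of the longest annotated transcript (horizontal axis, with the number of genes). WT 4 runs from -0.89 under 40% GC to 0.83 at 60% or more, and WT 1, WT 2 and WT 3 run together the other way because WT 4 is part of their comparison.

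Actb had the smallest CV among genes with a mean of at least 10 FPKM. This cytoskeletal actin gene was at 491.4, 489.2, 489.0 and 485.0 FPKM in WT 1 to WT 4, a CV of 0.55%. The next were Tprgl, a presynaptic protein gene, at 0.59% and Lman2, a cargo receptor gene of the secretory pathway, at 0.65%. This ranking is of values as deposited. All of these genes lie between 50% and 55% GC, where the median deviation of WT 4 was -0.06. With the GC trend removed, Actb was at 478.5, 475.6, 481.7 and 523.4 FPKM, with WT 4 highest. Of 15 genes commonly used as qPCR references, 0 had a CV of at least 30%, against 13.9% of all genes. They were not equally steady. Gapdh had a CV of 5.71%, Ppia 10.1%, Ywhaz 22.9% and Hprt 24.8%, and the last of these was at 49.7, 49.7, 48.7 and 27.6 FPKM with WT 4 low. Without WT 4 Hprt had a CV of 1.18%, and 0 of the 15 reached 30%, against 3.87% of all genes. Synaptic vesicle genes were as even, with a median CV of 2.68% over 15 genes without WT 4 and 8.50% with it. Cytosolic ribosomal protein genes had a median CV of 3.55% without WT 4 over 51 genes. With WT 4 it was 17.7%, beside 17.8% for all genes, and 10 of 51 reached 30%, against 13.9% of all genes.

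The rows with the largest CV were mainly short RNAs. Of 202 short RNAs with a mean of at least 1 FPKM, 69 were above 0 in a single mouse, and the median CV of the 202 was 120%. Any row above 0 in a single mouse has a CV of 200% over 4 mice. Such rows also included 2 protein-coding genes, 1 long noncoding RNA and 2 rows without annotation. Snord66, a small nucleolar RNA, was listed at 1222 FPKM in WT 1 and at 0 in the other 3 mice. Snord99 was listed at 1172 FPKM in WT 2 alone. The median CV was 24.01% for 1497 long noncoding RNAs and 16.8% for 12189 protein-coding genes, and 12.6% and 5.22% without WT 4. FPKM divides by length, so a single fragment is worth more FPKM in a short row than in a long one.

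Immediate early genes had the highest median CV over 4 mice of the 32 lists with at least 5 members at 1 FPKM or more. It was 52.7% over 23 genes, and 16 of them reached a CV of 30%, against 13.9% of all genes. Without WT 4 the median was 29.0% and 11 of 23 reached 30%, against 3.87% of all genes. WT 3 was the highest of WT 1 to WT 3 in 22 of the 23, against 31.7% of all genes. WT 3 and WT 4 both lay above WT 1 and WT 2 in 21 of the 23, against 11.1% of all genes, and after removal of the GC trend again in 21, against 19.8%. The exceptions were Bdnf, a neurotrophin gene, at 5.82, 6.86, 5.48 and 3.29 FPKM, and Klf4, a transcription factor gene, at 1.81, 1.89, 2.07 and 1.72. As deposited, WT 4 was the highest of the 4 mice in 15 of the 23, against 28.6% of all genes. The summed level of the list as deposited was 230.8, 272.2, 443.1 and 635.7 FPKM in WT 1 to WT 4. Whether that count and that sum hold with the GC trend removed was not tested.

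The largest CV over 4 mice among the members was that of Egr4, a zinc-finger factor gene, at 119%, with 35.03 FPKM in WT 4 beside 4.36, 4.42 and 6.52 in WT 1 to WT 3. Without WT 4 it was that of Cyr61, at 114%, followed by Btg2, at 90.3%. Fos, a subunit of the AP-1 dimer, was at 5.37, 6.97, 23.7 and 19.2 FPKM in WT 1 to WT 4. Npas4, a neuron-specific factor induced by calcium entry, was at 3.16, 4.98, 12.2 and 16.5 FPKM, and Arc, which carries synaptic plasticity as a dendritic protein, at 21.1, 31.3, 75.8 and 99.7. In all 3 genes WT 3 and WT 4 were high, WT 1 was lowest and the pairs did not overlap. Egr1, a zinc-finger factor with a high resting level in cortex, varied less, at 58.1, 68.1, 85.9 and 91.9 FPKM. Junb was at 7.22, 9.71, 22.7 and 59.2 FPKM, and Dusp1, a phosphatase that turns off MAP kinases, at 6.25, 7.46, 18.7 and 21.8. Cyr61, a matricellular protein gene, was at 1.17, 1.11, 7.72 and 10.4 FPKM. After removal of the GC trend, the lower of WT 3 and WT 4 over the higher of WT 1 and WT 2, on the FPKM + 0.1 scale, was 6.24 for Cyr61, 3.99 for Btg2, 3.37 for Egr2, 2.97 for Fos, 2.46 for Npas4 and 2.21 for Arc. Dusp6 and Fosl2 varied little, with CVs of 13.5% and 11.5%.

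The promoters of 4 of these genes are shown because immediate early genes share short elements upstream of the start through which activity acts. Each sequence holds the 250 bases before the start of the gene, 5′ to 3′ on the gene's strand, from RefSeq on GRCm38.p6. Capitals mark TGACG on either strand, which is the core of the cyclic AMP response element bound by CREB.
Fos, chr12:85473640-85473889, plus strand: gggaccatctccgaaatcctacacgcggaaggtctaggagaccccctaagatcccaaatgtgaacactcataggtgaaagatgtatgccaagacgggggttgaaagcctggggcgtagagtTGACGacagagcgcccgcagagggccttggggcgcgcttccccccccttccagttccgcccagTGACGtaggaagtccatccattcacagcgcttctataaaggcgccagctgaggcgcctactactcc
Npas4, chr19:4989972-4990221, minus strand: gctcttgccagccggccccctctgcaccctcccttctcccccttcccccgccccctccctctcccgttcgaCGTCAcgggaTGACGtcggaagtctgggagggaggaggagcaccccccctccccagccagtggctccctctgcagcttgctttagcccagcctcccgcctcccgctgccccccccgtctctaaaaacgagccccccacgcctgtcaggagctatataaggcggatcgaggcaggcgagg
Dusp1, chr17:26508473-26508722, minus strand: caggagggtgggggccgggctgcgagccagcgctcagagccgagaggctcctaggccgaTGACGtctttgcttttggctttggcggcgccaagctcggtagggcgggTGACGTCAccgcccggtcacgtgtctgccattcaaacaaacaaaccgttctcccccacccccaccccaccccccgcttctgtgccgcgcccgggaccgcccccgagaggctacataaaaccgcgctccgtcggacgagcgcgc
Junb, chr8:84978749-84978998, minus strand: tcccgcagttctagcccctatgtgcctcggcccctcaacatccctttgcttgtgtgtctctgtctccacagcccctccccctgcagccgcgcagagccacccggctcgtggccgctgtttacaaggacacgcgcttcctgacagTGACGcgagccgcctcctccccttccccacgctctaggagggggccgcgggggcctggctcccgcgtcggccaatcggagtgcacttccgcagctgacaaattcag

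TGACG was searched on both strands and stood 2 times in the Fos window, 2 times in that of Npas4 and 1 time in that of Junb. The Dusp1 window held 3 matches, of which 2 overlap as the 8-letter palindrome TGACGTCA. Promoters of 16 of the 23 immediate early genes were in the RefSeq table, and 13 of the 16 held TGACG within the 250 bases, against 17.8% of 32851 promoters of the same length. The palindrome TGACGTCA stood in 2 of 16, against 1.55% of all. A CArG box, the site of serum response factor, stood in 1 of 16, against 1.47%. Sequence further upstream than these 250 bases was not searched. These are matches of letters and were not tested as binding sites.

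Of the glucocorticoid target genes, several lay lower in WT 3 and WT 4. Zbtb16, a transcriptional repressor gene, was at 16.1, 15.9, 8.91 and 7.81 FPKM in WT 1 to WT 4. Fkbp5, a co-chaperone of the glucocorticoid receptor, was at 8.74, 7.80, 5.30 and 4.85 FPKM, and Tsc22d3, the leucine zipper gene also called GILZ, at 30.8, 27.7, 20.2 and 9.98. Hif3a was at 2.27, 1.82, 0.56 and 0.40 FPKM. In all 4 genes WT 1 was highest, WT 4 was lowest and the pairs did not overlap. The summed level of the list, led by the metallothionein genes, was 415.8, 366.8, 328.1 and 651.5 FPKM and was highest in WT 4. Of 14 genes of the list with a mean of at least 1 FPKM, WT 3 and WT 4 lay below WT 1 and WT 2 in 7, against 26.2% of all genes. They lay above in 0, against 11.1% of all genes. The counts after removal of the GC trend were also 7 and 0, against 21.9% of all genes below and 19.8% above. Other lists had a like share below, with 9 of 15 synaptic vesicle genes and 9 of 17 clock genes as deposited. WT 1 was the highest of WT 1 to WT 3 in 12 of 14, against 32% of all genes. Not every member followed, since Nfkbia was at 6.62, 6.52, 6.62 and 5.72 FPKM. The metallothionein gene Mt1, which metals also induce, was highest in WT 4 at 192.4, 174.6, 172.8 and 359.0 FPKM.

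**Figure D4:**
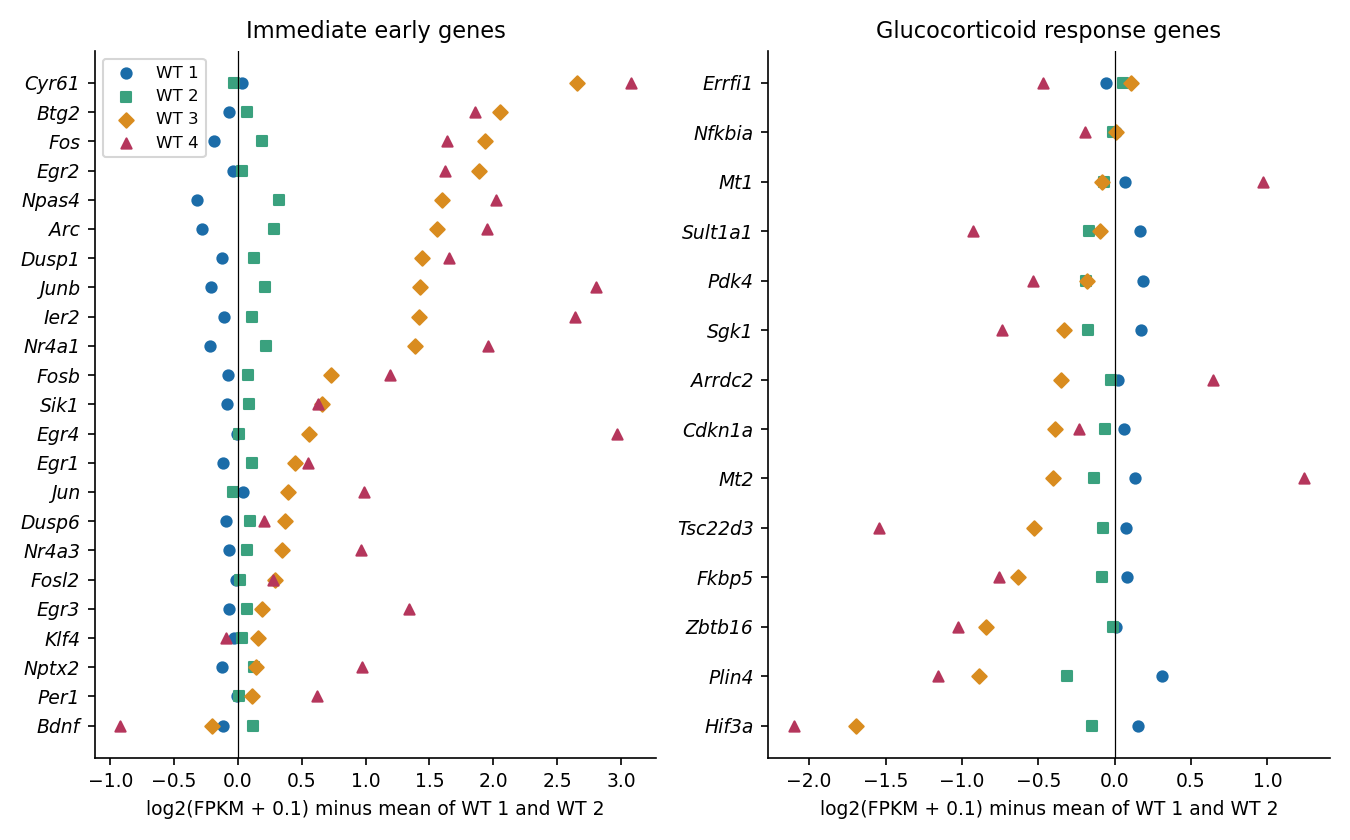
Immediate early genes (left) and glucocorticoid response genes (right) with a mean of at least 1 FPKM in each wild-type mouse, as log2(FPKM + 0.1) minus the mean of WT 1 and WT 2 (horizontal axis). WT 3 and WT 4 lie to the right of WT 1 and WT 2 in 21 of 23 immediate early genes, and to the left of them in 7 of 14 glucocorticoid response genes.

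Of the 32 lists, hypothalamic genes had the highest median CV among WT 1 to WT 3. Their median CV without WT 4 was 33.8% over 10 genes, and 5 of 10 reached 30%, against 3.87% of all genes. Oxt, the oxytocin gene, was at 2.92, 1.56, 8.40 and 9.76 FPKM in WT 1 to WT 4, and Avp, the vasopressin gene, at 2.23, 0.86, 2.91 and 7.29. Cartpt was at 4.72, 3.50, 9.52 and 5.90 FPKM. WT 2 was lowest in each of these 3 genes, and WT 3 was the highest of WT 1 to WT 3 in 9 of 10 genes, against 31.7% of all genes. Serotonergic transcripts of the raphe were also highest in WT 3. Tph2, the brain enzyme of serotonin synthesis, was at 1.10, 0.82, 2.81 and 0.23 FPKM, and the serotonin transporter gene Slc6a4 at 0.43, 0.35, 1.56 and 0.05. Glra1, the adult glycine receptor gene of brainstem and spinal cord, was at 4.54, 1.86, 3.05 and 1.29 FPKM, with WT 1 highest. Striatal genes had a median CV of 7.31% without WT 4, beside 5.74% for all genes, and 0 of 20 reached 30%, against 3.87% of all genes. WT 2 was the highest of WT 1 to WT 3 in 15 of those 20, against 36.3% of all genes. Of 12 choroid plexus genes, 8 lay lower in WT 3 and WT 4 than in WT 1 and WT 2, against 26.2% of all genes. How much of each region entered each sample was not tested.

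Circadian clock genes had smaller spreads than immediate early and hypothalamic genes, but larger median CVs than all genes. WT 3 and WT 4 both lay below WT 1 and WT 2 in 9 of 17 clock genes, against 26.2% of all genes, and in 10 with the GC trend removed, against 21.9%. Nr1d1, a nuclear receptor repressor of the clock, was at 37.9, 37.0, 27.3 and 32.5 FPKM, and Arntl, an activator of the same loop, at 11.7, 11.8, 14.2 and 10.5. The median CV over 17 clock genes was 11.0% without WT 4, beside 5.74% for all genes, and 0 reached 30%, against 3.87% of all genes. With WT 4 it was 20.9%, beside 17.8% for all genes, and 3 of 17 reached 30%, against 13.9%. Cry2 had a CV of 1.62% over 4 mice. Heat shock genes had a list median of 42.9 FPKM and a median CV of 3.13% without WT 4 over 16 genes. All genes at 10 to 50 FPKM had a median CV of 3.98% without WT 4. With WT 4 the heat shock median was 15.2%, beside 17.8% for all genes, and 2 of 16 reached 30%, against 13.9%. Interferon response genes were low, with 7 of 16 at a mean of at least 1 FPKM, led by Ifitm3 at 7.38, 5.40, 7.52 and 8.63.

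Several single genes, chosen after their values were seen, separated WT 3 and WT 4 from WT 1 and WT 2. After removal of the GC trend, 27 of 12189 protein-coding genes lay at least 1.5-fold above in WT 3 and WT 4 and 9 lay at least 1.5-fold below. The 27 included immediate early genes given above, among them Cyr61, Btg2, Egr2, Fos, Dusp1, Npas4, Junb and Arc. The 9 included Hif3a and Zbtb16 of the glucocorticoid list. Gabra2 (chr5:70957597-71095849, minus strand, mm10), the alpha-2 subunit of the GABA-A receptor, was at 14.1, 14.95, 33.9 and 17.4 FPKM. With the GC trend removed it was at 12.3, 12.8, 28.9 and 27.6. Nnt (chr13:119335448-119408997, minus strand), the mitochondrial transhydrogenase gene, was at 4.22, 4.57, 8.21 and 7.20 FPKM, without overlap between the pairs. Both genes are known to carry variants of the C57BL/6J substrain, a deletion of several exons in Nnt and an intronic deletion in Gabra2 that lowers its RNA. The substrain of each mouse was not tested. Wdfy1, which encodes an endosomal adaptor, was at 6.51, 6.12, 11.0 and 7.00 FPKM, and at 5.93, 5.52, 10.0 and 9.34 with the GC trend removed.

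Other genes, also chosen after their values were seen, were lower in WT 3 and WT 4. Gm7120, annotated as Tmem267 (chr13:119488039-119611059, plus strand, mm10), lies near Nnt on the same chromosome and was at 17.1, 16.3, 6.57 and 5.77 FPKM. Ide (chr19:37268743-37337852, minus strand), which encodes insulin-degrading enzyme, was at 16.6, 16.6, 11.0 and 7.52 FPKM, and at 14.9, 14.6, 9.74 and 10.8 with the GC trend removed. Mid1, an X-linked ubiquitin ligase gene, was at 6.23, 5.603, 1.4995 and 2.32 FPKM. In all 3 genes WT 3 and WT 4 were low and the pairs did not overlap.

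WT 2 was the lowest mouse in Ndn and the highest in Rasgrf1, 2 imprinted genes that were also chosen after their values were seen. Ndn (chr7:62346569-62350262, plus strand), which is expressed from the paternal allele and encodes necdin, was at 75.9, 37.0, 75.7 and 81.2 FPKM, with WT 2 low and the other 3 mice close together. With the GC trend removed it was at 68.8, 33.3, 68.2 and 110.9, with WT 2 again lowest and WT 4 highest. Rasgrf1 (chr9:89909908-90026977, plus strand), a paternally expressed exchange factor gene in mouse brain, was at 89.3, 138.7, 80.4 and 91.1 FPKM, with WT 2 highest by a gap just under 82.9% of the range. Neighbours of Ndn in the same imprinted region did not show a low WT 2. Magel2 was at 1.28, 1.43, 1.57 and 1.21 FPKM and Snrpn at 239.1, 240.7, 230.7 and 147.4. Of 20 imprinted genes with a mean of at least 1 FPKM, 3 had a CV of at least 30%, near the 13.9% of all genes. Without WT 4 Ndn alone of 19 did, near the 3.87% of all genes. Rasgrf1 was not a member of this list, and its CV without WT 4 was 30.5%. The allele from which each gene was read was not analysed here.

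**Figure D5:**
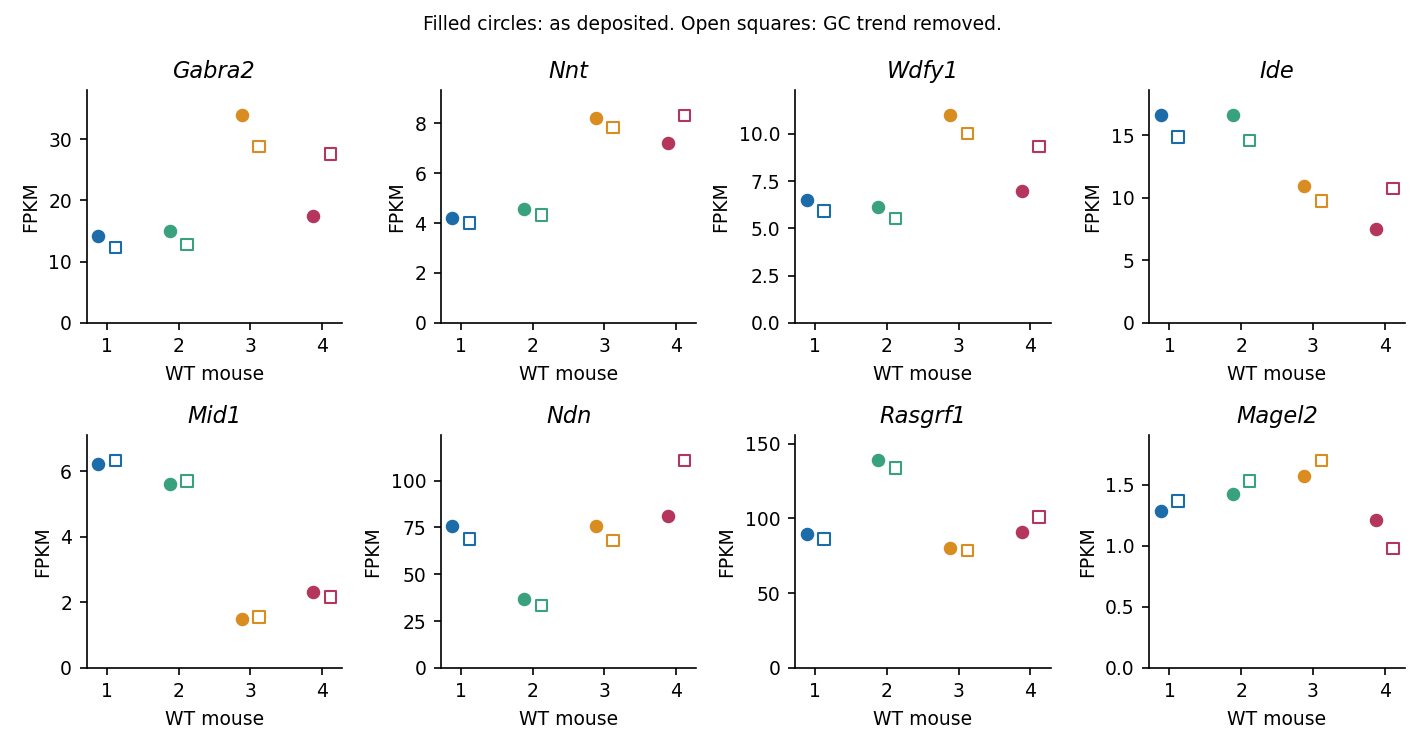
FPKM (vertical axes, from 0) of 8 genes in each wild-type mouse (horizontal axes), as deposited (filled circles) and after removal of each library's GC trend (open squares). Gabra2, Nnt and Wdfy1 lie high and Ide and Mid1 low in WT 3 and WT 4 after that removal, Ndn is low and Rasgrf1 high in WT 2, and Magel2 shows no low value in WT 2.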

How the data were processed

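RNA was sequenced from 12 mouse brains, 4 of them wild-type and described here, and the 8 knockout columns were not read. Per the labels' protocols, libraries were made with an Illumina TruSeq mRNA kit, which does not mark strand, after polyA selection, while a label calls them depleted of ribosomal RNA. The authors deposited FPKM values, 1 per gene and sample. Cuffdiff 2.1.1, Cufflinks, TopHat2 2.0.9, FastQC and Bowtie2 2.1.0 are named with the mm10 build, per the submitters' processing notes. Neither the annotation nor the scaling between libraries is stated there. Cuffdiff estimates how reads divide between transcripts, so values of copies close in sequence and of overlapping loci are uncertain, and a value of 0 means only that the gene is listed at 0. Of the row names, 25 had become dates and carry no gene name.

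The members, gene lists and thresholds were chosen with earlier results of these data known. Means, SDs and CVs were computed from FPKM as deposited with pandas 2.3.3 in Python 3.11.15, over genes with a mean of at least 1 FPKM. Logs used log2(FPKM + 0.1). Row names were matched to GENCODE M21 on mm10 by symbol (20709), Ensembl identifier (3914) or synonym (1868), and 640 stayed unmatched. GC content is that of the longest transcript and was known for 98.4% of genes with a mean of at least 1 FPKM. To remove a GC trend, genes were put into 40 bins of GC content and the median deviation of each library in a bin was subtracted on the log2 scale. A mouse stood apart where its gap to the nearest other mouse exceeded 0.829 of the range of the 4. No group was tested against another, so there are no p-values, and the alternatives are given in the closing section. The procedure was tested on simulated data. Some genes are not reported here. Many genes were named by rank in level or CV and, within lists, by level. Others, such as Npas4, were named outside that rule with their values known, and not all of these are marked in the text. Whether reads per gene could be recovered was checked on low receptor genes. Between WT 1 and WT 2, 18 of 75 ratios fell in a shared step, and between WT 2 and WT 4, 5 of 83, so relative depth could not be read for WT 4.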

Additional observations from a re-analysis of the deposited data

Results flagged for a closer look

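Of 71 values checked for a mouse standing apart, 24 had a highest or lowest mouse whose gap to the nearest other exceeded 82.9% of the range over 4 mice. Chance flags about 1 in 20 such groups. WT 4 was the mouse in 20 of the 24. It lay above the others in Mbp (928.4 FPKM), Apoe (965.4), Ppp1r1b (97.97), Cux2 (23.7), Cldn5 (20.5), Mt1 (359.0), Egr4 (35.03), Ddx3y (6.51), Atp6v0c (374.5), Amd1 (14.4) and Rian (20.1). It lay below them in Snap25 (397.4 FPKM), Gria2 (69.4), Amd2 (1.35), Atp6v0c-ps2 (listed at 0), Snrpn (147.4), Hprt (27.6), Cx3cr1 (6.36), Nfkbia (5.72) and the summed GABA-A receptor genes (214.8). WT 2 stood apart in Ndn, at 37.0 FPKM, and in the rows ENSMUSG00000098178.1 and ENSMUSG00000086324.2, at 115807 and 11089 FPKM. WT 3 stood apart in Gabra2, at 33.9 FPKM as deposited. The genes had been picked with their values known, so the share is no estimate for other genes.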

How the results depend on the processing

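The number of genes with a mean of at least 1 FPKM was 14189, lay between 14118 and 14195 with a mouse left out, and was 8736 or 23151 with the minimum mean at 5 FPKM or just above 0. The median CV was 17.8%, between 5.74% and 19.98% with a mouse left out, 9.25% with the GC trend removed and 5.66% with WT 4 left out as well, an alternative chosen after seeing the data. Under the other alternatives (median ratio, same-sum and quantile scaling, other minimum means, log-based CVs, protein-coding genes alone) it lay between 14.9% and 23.5%. The count of genes with a CV of at least 30% was the least stable. It was 1974, between 549 and 3320 with a mouse left out, 2980 with libraries scaled to the same sum, 966 at a minimum mean of 5 FPKM, 8132 with no minimum and 2968 with a pseudocount of 0.01. It was 1106 with the GC trend removed, 520 with WT 4 left out as well and 1279 over protein-coding genes alone, the last 2 chosen after seeing the data. The cause was not tested. Immediate early genes had the highest median CV of the lists as deposited and under each alternative that kept WT 4, except with no minimum level, where monoamine genes led with 72.7% against 52.7%. Without WT 4 hypothalamic genes led with 33.8% against 29.0%. Median ratio factors were 1.05 in WT 1, WT 2 and WT 3 and 0.87 in WT 4. No paired analysis was possible because a single group was described.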

Other observations

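Receptor genes for the main transmitters had levels of their own. Among 22 glutamate receptor genes with a mean of at least 1 FPKM, Gria2, an AMPA receptor subunit gene, led at 134.5, 143.1, 134.3 and 69.4 FPKM in WT 1 to WT 4, with WT 4 low. Grin1, the obligatory NMDA receptor subunit gene, was at 58.8, 59.6, 53.3 and 73.5 FPKM. Without WT 4 the median CV was 4.74% for glutamate and 4.47% for GABA-A receptor genes, and Gabra2 was the member of the GABA-A list that reached 30%. Nuclear genes of oxidative phosphorylation were abundant, with a list median of 57.2 FPKM over 38 genes, and Cox6c, a subunit of cytochrome c oxidase, led with a mean of 321.9 ± 61.3 FPKM (SD, n = 4).

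In 3 pairs of near-identical genes, the copy that was near 0 in WT 1 to WT 3 carried most of the level in WT 4. Atp6v0c, a proton pump subunit gene, was at 0.01, 0.02, 0.06 and 374.5 FPKM in WT 1 to WT 4, while its pseudogene Atp6v0c-ps2 was at 319.4, 324.8 and 306.2 FPKM in WT 1 to WT 3 and listed at 0 in WT 4. Their sums were 319.4, 324.9, 306.2 and 374.5 FPKM. Amd1 was at 0.02, 0.01, 0.02 and 14.4 FPKM and Amd2 at 30.04, 30.5, 29.2 and 1.35, with sums of 30.1, 30.5, 29.2 and 15.8 and thus WT 4 low. Hba-a2 was at or under 0.01 FPKM in WT 1 to WT 3 and at 22.1 in WT 4, while Hba-a1 was at 17.4, 17.9, 12.0 and 6.40. The division of reads between such copies is uncertain, and these values were chosen after they were seen. The imprinted noncoding RNA Rian had a like pattern, with 0.01, 0.09, 0.03 and 20.1 FPKM.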
